A study of Mus musculus with 12 samples.

Results

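The comparison described here is that of phenformin with water in explants of the control line, across all genes on the array. It rests on 6 of the 12 arrays of the series: the 3 samples whose titles read LMTV_NMuMG-ErbB2/VC_phenformin and the 3 whose titles read LMTV_NMuMG-ErbB2/VC_ctrl, each followed by a replicate number, and the titles alone chose them. The labels used here do not spell out LMTV, which stands in all 12 titles. All 6 came from mouse NMuMG-ErbB2 cells, a mammary gland epithelial line that carries the ErbB2 oncogene, here in the version labelled VC and control, called vector explants below. The cells had been injected into the tail vein of mice, and lung metastases were put into culture as explants, so every group had passed through a mouse lung. Phenformin was given at 100 uM for 4 days, and control explants received water for the same time. The other 6 arrays hold explants of the same line that overexpress PGC-1alpha, with 3 in water and 3 in phenformin. The labels name no mouse strain, age, number of cell clones or number of animals, and do not tell from how many animals or cultures the replicates came. The p-values therefore cover only the spread among these arrays, and that spread may be technical.

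Phenformin is a biguanide, a relative of metformin that enters cells more readily, and is known as an inhibitor of complex I, the NADH dehydrogenase of the respiratory chain. Cells whose respiratory chain is blocked are known to raise AMP, which activates the kinase AMPK, and to phosphorylate the translation factor eIF2alpha, which favours synthesis of ATF4. This transcription factor, the main effector of the integrated stress response, drives genes for amino acid synthesis, uptake and transfer RNA charging. Genes for sterol synthesis are driven by SREBP2, which leaves the endoplasmic reticulum when membrane sterol is low and is held there by Insig1 when it is high.

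Values are log2 expression values as deposited, given per array in the order of replicates 1, 2 and 3. Differences are phenformin minus water with the standard error of limma, a linear model fitted across all genes, and n = 3 per group. A gene is said to have risen or fallen where its limma p, adjusted by Benjamini-Hochberg over 19505 genes, was under 0.05. An array's background is the 95th percentile of its negative control probe sets. A fold is given as "at least" where the dimmer group had no array above background, and no fold is given where that bound was under 1 or where neither group exceeded it. Nor is a fold given where some arrays of the dimmer group exceeded background but its mean lay below the mean background.

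The 6 arrays had like overall levels, with medians over all probe sets of 6.32 to 6.43, and 35.8% to 39.1% of genes exceeded background. Water replicate 2 stood apart from the other vector arrays, at -35.9 on their first principal component against -11.7 for the next array. The negative controls had medians of 4.87, 4.69 and 5.02 in the water arrays and of 5.2, 5.18 and 5.09 in the phenformin arrays. Every phenformin array was above every water array, by 0.29 on average (exact permutation test over samples, two-sided, p = 0.1, the smallest that 3 against 3 can give). The gap between positive and negative controls was likewise narrower in phenformin, by -0.22, so this gap and the treatment cannot be told apart. Ppargc1a, the gene of PGC-1alpha, was below background in all 6 arrays, with a difference of 0.01 ± 0.11. The labelled tissue was checked against its markers: Cdh1, Krt8 and Krt18 were among 7 of 23 mammary epithelial markers above background, with levels of 12.03 to 12.99, while Epcam, Krt5 and Krt14 were below it in all 6 arrays. The mouse gene Erbb2 read 9.93, 10.11 and 10.12 in water and 9.75, 9.96 and 9.84 in phenformin. Whether its probe set takes up the ErbB2 transgene was not tested.

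In vector explants, limma called 234 of 19505 genes (1.2%), of which 179 were higher in phenformin (0.918%) and 55 lower (0.282%). After the values were quantile normalized again, 115 were higher and 59 lower, so that the higher share was 66.1% against 76.5%. Most changes were of moderate size: 31 calls exceeded 1 on the log2 scale, 184 lay between 0.5 and 1, and the median size was 0.69. The 3 arrays of each group did not overlap for any of the 234, but the same held for 2250 genes with phenformin above water (11.5%) and 1533 with phenformin below (7.86%). Higher and lower calls lay at different levels. Among the 7039 genes above background in all arrays of a group, 128 rose and 17 fell, while among the 11446 genes above background in no vector array, 36 rose and 33 fell. The median difference of all genes was also tied to level, at 0.09 in the former class and -0.07 in the latter, against -0.01 over all 19505 genes, of which 9550 (49%) had a positive difference, and the part of the control levels in this tilt was not tested.

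**Figure D1:**
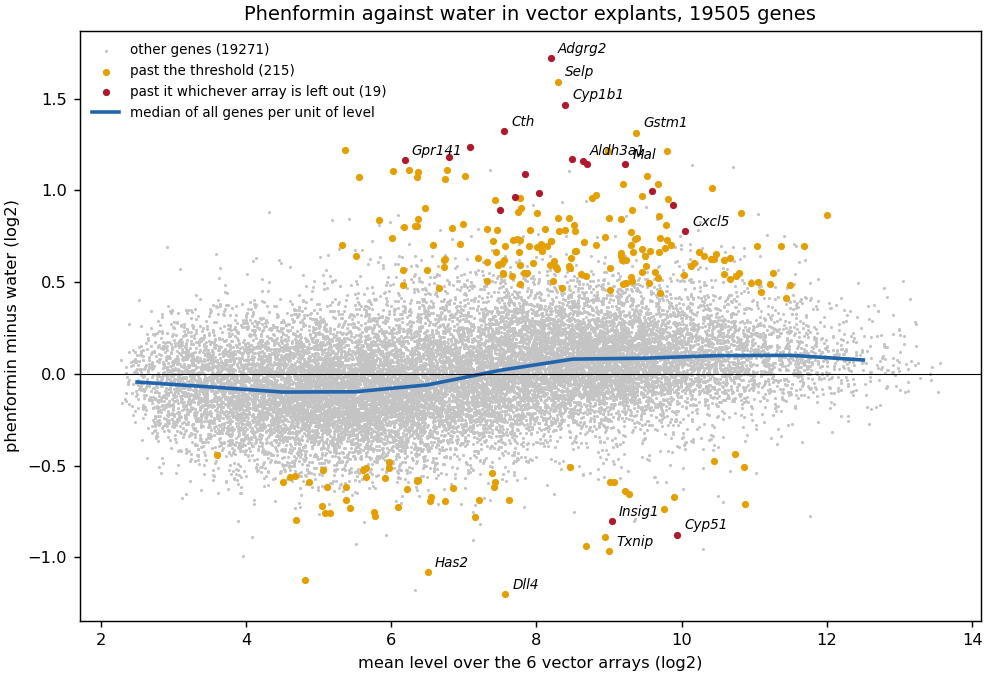
Difference of each gene between phenformin and water in vector explants (log2, vertical axis) against its mean level over the 6 arrays (log2, horizontal axis). Grey points are genes that did not pass, orange points genes past the threshold and red points the 19 genes past it whichever array was left out; the blue line is the median difference per unit of level, which runs below 0 for dim genes and above 0 for bright ones.

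How many genes passed depended on single arrays. The count was 40 without water replicate 2, 601 without water replicate 3, and 96, 21 and 46 without phenformin replicates 1, 2 and 3. With only the 6 vector arrays in the fit it was 13, all of them higher in phenformin, and with the control gap as a covariate it was 0, with 1649 at an unadjusted p under 0.05. All 234 kept their sign in every one of these fits, but for all except the covariate fit this was fixed in advance. The groups of the 234 did not overlap, and the fit of 6 arrays leaves each difference as it was. Of the 50 members of the gene lists below that were called, 13 were also called without water replicate 2 and 9 without phenformin replicate 2, against 43 without water replicate 1. The 19 genes that passed whichever array was left out are therefore described first: 17 that rose and 2 that fell.

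Cth encodes cystathionine gamma-lyase, which makes cysteine from cystathionine. It read 6.82, 6.96 and 6.91 in water and 8.33, 8.22 and 8.10 in phenformin. The water arrays lay close together and every phenformin array lay well above them. The difference was 1.32 ± 0.11 (at least 1.35-fold, adjusted p = 0.000268), and no other gene had as small an adjusted p. Adgrg2, an adhesion G protein-coupled receptor, read 7.65, 7.0 and 7.35 in water and 8.89, 9.46 and 8.82 in phenformin. Its rise of 1.72 ± 0.22 (at least 2.42-fold, adjusted p = 0.00325) was the largest of all calls, and the groups did not overlap. Cyp1b1, a cytochrome P450 of the aryl hydrocarbon receptor pathway, read 8.01, 7.53 and 7.43 in water, where 1 array exceeded background, and 9.05, 9.20 and 9.13 in phenformin. It rose by 1.47 ± 0.19, and no fold is given because the water mean lay below the mean background.

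Aldh3a1, an aldehyde dehydrogenase, read 8.06, 7.97 and 8.14 in water and 9.07, 9.33 and 9.25 in phenformin, a rise of 1.16 ± 0.11 (2.24-fold, adjusted p = 0.000759). Mal, a tetraspan protein of apical membrane traffic, read 8.73, 8.45 and 8.79 in water and 9.78, 9.81 and 9.80 in phenformin. The phenformin arrays of Mal nearly coincided and the rise was 1.14 ± 0.13 (2.21-fold). Gcnt3, an enzyme that branches mucin-type glycans, rose 2.25-fold from 8.0, 7.62 and 8.09, with 2 arrays above background, to 9.06, 9.10 and 9.07. Vnn1, the pantetheinase that yields pantothenate and cysteamine, rose 1.99-fold from 9.27, 8.90 and 9.12 to 10.06, 10.12 and 10.10. Each of these genes was lowest in water replicate 2, and in none did the groups overlap.

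Hspb1, a small heat shock protein, rose 2.21-fold from 8.54, 7.76 and 8.09, with 2 arrays above background, to 9.23, 9.19 and 9.40. Cxcl5, a chemokine that attracts neutrophils, rose 1.71-fold from 9.59, 9.71 and 9.68 to 10.40, 10.47 and 10.45. Reep6, a protein that shapes the endoplasmic reticulum, rose 1.89-fold from 9.61, 9.24 and 9.43 to 10.31, 10.43 and 10.29. Lynx1, a membrane-anchored modulator of nicotinic receptors, rose at least 1.52-fold (1.09 ± 0.15), and Cdsn, an adhesion protein of cornified epithelium, at least 1.67-fold (0.99 ± 0.14). Psg17, a pregnancy-specific glycoprotein, rose at least 1.32-fold, and Retsat, a retinol saturase, at least 1.12-fold. The chloride channel protein Clic3 (1.24 ± 0.17), the glutathione S-transferase Gstm7 (1.18 ± 0.13) and the orphan receptor Gpr141 (1.17 ± 0.12) rose close to or within the range of the negative controls, so no fold is given. Gpr141 read 5.55, 5.66 and 5.59 in water and 6.75, 6.77 and 6.78 in phenformin, tight in both groups but below background in all 6 arrays.

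Both genes that fell whichever array was left out act in sterol synthesis. Insig1 read 9.52, 9.37 and 9.42 in water and 8.58, 8.71 and 8.62 in phenformin, and Cyp51, the lanosterol demethylase, read 10.13, 10.37 and 10.63 in water and 9.54, 9.56 and 9.39 in phenformin. All 3 phenformin arrays lay below all 3 water arrays for each gene. Insig1 fell by 0.80 ± 0.10 (1.74-fold, adjusted p = 0.00325) and Cyp51 by 0.88 ± 0.13 (1.84-fold, adjusted p = 0.00853).

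**Figure D2:**
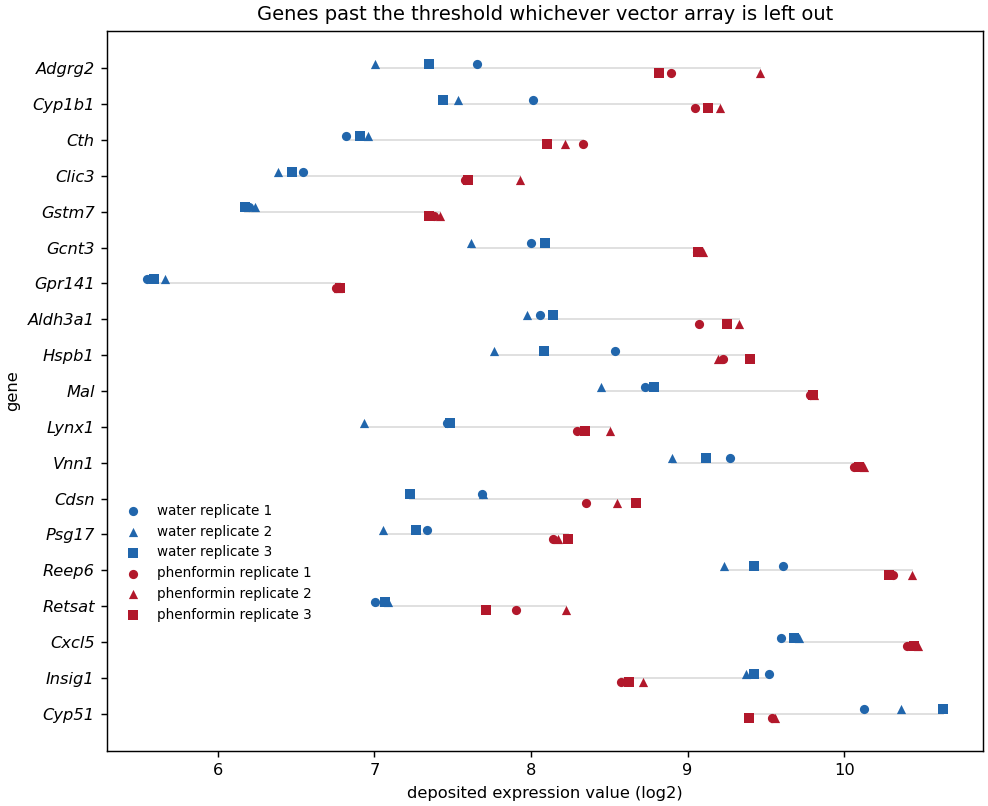
Deposited log2 values (horizontal axis) of the 19 genes past the threshold whichever vector array was left out (vertical axis, ordered by difference), with water arrays in blue and phenformin arrays in red and a symbol per replicate. The red and blue symbols of a gene do not overlap, and water replicate 2 is the lowest array for many of the genes that rose.

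Enzymes of cholesterol synthesis had a lower mean in phenformin at every measured step. Of 16 members with a value, 5 fell and 11 did not pass, and all 16 had a negative difference, with a median of -0.36 against -0.01 over all genes. Over all genes 0.282% fell. The arrays of the groups did not overlap for 11 of the 16, all with phenformin below water, an order found in 7.86% of all genes. The mean level of the 16 was 9.57, 9.67 and 9.85 in water and 9.21, 9.32 and 9.24 in phenformin. Without water replicate 2, 2 members fell and the median was -0.38. The other 4 listed enzymes were not analysed here.

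In pathway order, Hmgcs1, which makes HMG-CoA at the entry to the pathway, read 10.93, 11.18 and 11.22 in water and 10.52, 10.72 and 10.57 in phenformin, a fall of 1.42-fold. Mvk, Pmvk and Mvd, which turn mevalonate into isopentenyl pyrophosphate, differed by -0.14 ± 0.12, -0.12 ± 0.15 and -0.34 ± 0.12 and did not pass. Idi1, the isomerase that follows, read 8.89, 8.97 and 9.58 in water and 8.31, 8.30 and 8.01 in phenformin, a fall of 1.92-fold. Water replicate 3 was the highest array for Idi1 and also for Fdps, which builds farnesyl pyrophosphate and missed the threshold at -0.75 ± 0.18 (adjusted p = 0.057). Squalene synthase, Fdft1, differed by -0.35 ± 0.12, and squalene epoxidase, Sqle, by -0.56 ± 0.22. Sqle read 9.26 in water replicate 1 but 10.19 and 10.25 in the other water arrays, so that its groups overlapped.

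Downstream of squalene, lanosterol synthase, Lss, read 10.17, 10.21 and 10.31 in water and 9.55, 9.53 and 9.60 in phenformin. Replicates lay close together in both groups and it fell 1.59-fold (adjusted p = 0.00853), a call lost in 1 of the 6 fits that left out an array. Nsdhl, which removes the C4 methyl groups together with Msmo1, fell 1.35-fold from 10.98, 10.93 and 10.96 to 10.45, 10.55 and 10.57. Msmo1 (-0.31 ± 0.10), Hsd17b7 (-0.30 ± 0.12), Ebp (-0.17 ± 0.10), Sc5d (-0.37 ± 0.10) and Dhcr7 (-0.16 ± 0.15) did not pass.

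Of the 10 measured genes of SREBP control and sterol uptake, Insig1 fell and 9 did not pass. Srebf2, which encodes SREBP2, differed by -0.03 ± 0.10 at levels of 12.08 to 12.28, and its escort Scap by -0.20 ± 0.12. Insig2, the other retention protein, stood at 0.32 ± 0.19, and the sterol carrier Stard4 at -0.37 ± 0.11. Among 16 genes of fatty acid synthesis none passed, with a median of -0.08. Of the 16, 6 had all phenformin arrays below all water arrays and 3 had them above, against 7.86% and 11.5% of all genes. The desaturases Fads2 (-0.37 ± 0.10) and Fads1 (-0.30 ± 0.11) and the elongase Elovl6 (-0.33 ± 0.11) were among the 6. The citrate carrier Slc25a1 (0.32 ± 0.10) was among the 3. Among 11 genes of LXR targets and sterol efflux, Pltp, a phospholipid transfer protein, rose 2.32-fold from 9.65, 8.84 and 9.07 to 10.37, 10.42 and 10.41. The efflux pump Abca1 was below background in all 6 arrays.

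The promoter of Hmgcs1 is shown because, of the 6 called sterol genes with a promoter in RefSeq, it was the one in which the sterol element TCACNCCAC was found on either strand. The window covers 300 bases around the gene's start, at chr13:119690101-119690400 on the plus strand of GRCm38.p6, with the match in capitals. Of 21 sterol genes with a promoter, 1 held these letters, against 1.22% of 27025 promoter windows.
Hmgcs1: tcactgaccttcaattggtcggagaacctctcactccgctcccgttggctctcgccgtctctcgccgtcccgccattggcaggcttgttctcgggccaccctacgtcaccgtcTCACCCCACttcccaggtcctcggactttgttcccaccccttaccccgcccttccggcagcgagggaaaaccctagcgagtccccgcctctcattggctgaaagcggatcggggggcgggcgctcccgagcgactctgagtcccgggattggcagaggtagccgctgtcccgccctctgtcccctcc

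Genes of amino acid synthesis and transport that are known ATF4 targets held 3 rises, Cth among them. Of 20 measured, none fell and 17 did not pass. Of these 20, 16 had a positive difference and the median was 0.28, against 0.09 over genes above background. Among genes above background, where 18 of the 20 lay, 1.82% rose and 68.4% had a positive difference. The shares over all genes were 0.918% and 49%. The mean level of the list was 9.74, 9.65 and 9.79 in water and 9.98, 10.06 and 10.04 in phenformin. Without water replicate 2, Cth alone remained among the calls. Besides Cth, Gpt2, the mitochondrial alanine aminotransferase, rose 1.72-fold from 7.99, 7.86 and 8.16 to 8.72, 8.75 and 8.89. Chac1, which degrades glutathione, rose 1.65-fold from 8.03, 7.75 and 7.74, with 2 arrays above background, to 8.45, 8.68 and 8.56.

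In all, 12 of the 20 members had all phenformin arrays above all water arrays, against 11.5% of all genes. The share among genes above background was not computed. The opposite order, found in 7.86% of all genes, held for 1 member. That 1 is Cbs, which makes the cystathionine that Cth cleaves. It read 6.94, 6.91 and 7.22 in water and 6.33, 6.69 and 6.42 in phenformin, below background in all 6 arrays, with a difference of -0.55 ± 0.14 that did not pass (adjusted p = 0.084). Asparagine synthetase, Asns, read 11.58, 11.49 and 11.38 in water and 11.90, 11.88 and 11.92 in phenformin (0.42 ± 0.10, adjusted p = 0.0609). The glycine transporter Slc6a9 differed by 0.52 ± 0.13, the cystine transporter Slc7a11 by 0.39 ± 0.13, the leucine transporter Slc7a5 by 0.36 ± 0.12 and the phosphoserine aminotransferase Psat1 by 0.29 ± 0.09. Of the same serine and one-carbon branch as Psat1, Phgdh stood at -0.06 ± 0.13, Shmt2 at 0.10 ± 0.15 and Mthfd2 at 0.21 ± 0.12.

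The regulators of the response showed smaller differences than Cth. Atf4 itself read 11.15, 10.98 and 11.10 in water and 11.31, 11.37 and 11.34 in phenformin, without overlap but with a difference of 0.26 ± 0.10 that did not pass (adjusted p = 0.19). Ddit3, which encodes CHOP, differed by 0.19 ± 0.14 and the pseudokinase Trib3 by 0.43 ± 0.17, each with overlapping groups. Of the 22 genes in this list 2 rose: Vldlr, a lipoprotein receptor known as an ATF4 target, by 1.64-fold (8.18, 8.43 and 8.28 against 8.96, 9.03 and 9.03), and Oma1, the inner membrane protease that relays mitochondrial stress to eIF2alpha. Oma1 read 6.52, 6.35 and 6.89 against 7.20, 7.40 and 7.29, below background in all 6 arrays. Over all genes 0.918% rose. Of 18 cytosolic tRNA synthetases, the tryptophan enzyme Wars rose 1.54-fold, 17 did not pass and the median was 0.15. In the unfolded protein response of the endoplasmic reticulum, Sdf2l1, an HSP70 cofactor of the lumen, rose 1.47-fold, 19 of 20 did not pass and the median was 0.21, with Xbp1 at 0.10 ± 0.13 and Atf6 at 0.21 ± 0.15.

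**Figure D3:**
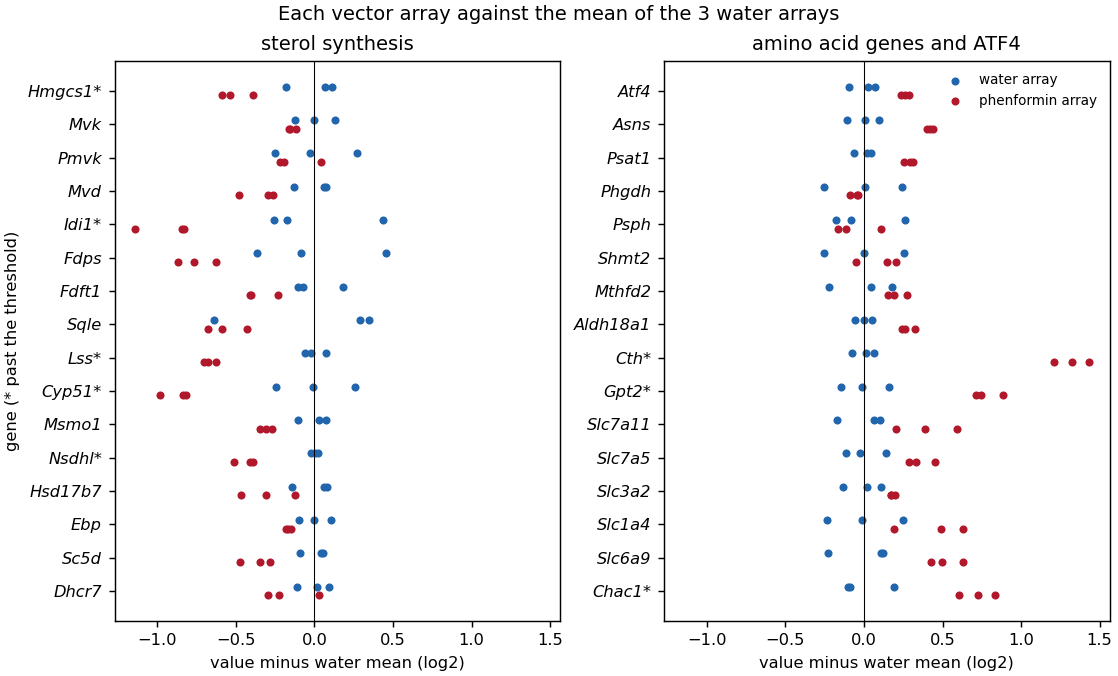
Values of the 6 vector arrays minus the mean of the 3 water arrays (log2, horizontal axis) for enzymes of sterol synthesis in pathway order and for Atf4 with amino acid genes, with water arrays in blue, phenformin arrays in red and an asterisk for genes past the threshold. Red points lie left of 0 for nearly all sterol enzymes and right of 0 for most amino acid genes, with Cth farthest out.

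Chac1 is shown for its promoter because, of 4 called genes of both ATF4 lists with a promoter in RefSeq, it was the one that held TGATGNAA, the letters of an ATF4 element, on either strand. The window lies at chr2:119350992-119351291 on the plus strand of GRCm38.p6, and the capitals mark the match, which reads in the reverse direction. Of 35 genes of these lists with a promoter, 8 held the letters, against 4.06% of 27025 windows.
Chac1: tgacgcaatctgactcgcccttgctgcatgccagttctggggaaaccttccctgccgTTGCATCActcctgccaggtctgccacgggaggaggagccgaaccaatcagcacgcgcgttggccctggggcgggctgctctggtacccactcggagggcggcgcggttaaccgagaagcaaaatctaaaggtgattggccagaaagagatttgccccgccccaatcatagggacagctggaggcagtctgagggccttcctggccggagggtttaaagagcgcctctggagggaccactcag

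Glutathione S-transferases, which conjugate glutathione to reactive compounds, held the highest count of rises among the 43 lists. Of 25 measured, 7 rose, none fell and 18 did not pass, with a median of 0.30, and 13 had all phenformin arrays above all water arrays. Over all genes 0.918% rose and 11.5% had that order. Without water replicate 2, 2 rose. The mean level of the list was 7.29, 7.20 and 7.24 in water and 7.62, 7.68 and 7.64 in phenformin, and 14 members were above background in no vector array.

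Within this family the mu class was the most often called. Gstm1 read 9.25, 8.17 and 8.74 in water and 10.11, 10.11 and 9.87 in phenformin, a rise of 2.49-fold that was lost in 5 of 6 fits that left out an array. Its water arrays spread over more than 1 on the log2 scale, with replicate 2 lowest. Gstm2 rose at least 1.33-fold from 7.57, 6.99 and 7.37 to 8.01, 8.45 and 8.12. Gstm5 rose 1.80-fold from 7.80, 7.72 and 8.08, with 1 array above background, to 8.74, 8.91 and 8.50. Gstm7 read 6.20, 6.23 and 6.18 in water and 7.38, 7.42 and 7.35 in phenformin, with close replicates, and was the one member called whichever array was left out. Mu class genes are near copies of each other, so probe sets may take up transcripts of more than 1 of them. Outside the class, Gsta4, which conjugates the lipid aldehyde hydroxynonenal, rose 1.76-fold (9.27, 9.29 and 9.58 against 10.22, 10.34 and 10.01). Gstp1 rose 1.62-fold (11.68, 11.10 and 11.24 against 12.04, 12.03 and 12.04), and Gsto2 by 1.07 ± 0.17 below background.

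Targets of NRF2, the transcription factor of the antioxidant response, held 2 calls. Of 24 measured, Aldh3a1 and Cbr1, a carbonyl reductase, rose, none fell and the median was 0.15. Over all genes 0.918% rose. Cbr1 rose by 0.81 ± 0.15 close to or within the range of the negative controls, so no fold is given. It was called in 2 of 6 fits that left out an array. All phenformin arrays lay above all water arrays for 10 members and below them for 1, against 11.5% and 7.86% of all genes. Hmox1 (0.36 ± 0.12), Gclm (0.31 ± 0.12), Gclc (0.30 ± 0.10) and Akr1b8 (0.33 ± 0.10) were among the 10 and did not pass. Nqo1 was below background in all 6 arrays, Nfe2l2, which encodes NRF2, differed by 0.04 ± 0.11 and its inhibitor Keap1 by 0.14 ± 0.12. In the aryl hydrocarbon receptor list of 9 genes, Cyp1b1 and Aldh3a1 rose. The receptor gene Ahr stood at 0.15 ± 0.14, its partner Arnt at 0.29 ± 0.10, its repressor Ahrr at -0.38 ± 0.13 and the target Tiparp at 0.48 ± 0.18. Cyp1a1, a further target, was below background in all 6 arrays.

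Of 21 aldehyde and alcohol dehydrogenases, 3 rose and none fell, with a median of 0.15. Without water replicate 2, 1 rose, and over all fits that left out an array 0 to 4 did. All phenformin arrays lay above all water arrays for 9 members and below them for 2, Aldh1a3 and Aldh1b1. Over all genes 0.918% rose, 11.5% had the former order and 7.86% the latter. Adh7, an alcohol dehydrogenase active on retinol, rose 1.58-fold from 9.48, 9.22 and 9.40 to 9.96, 10.04 and 10.08. Aldh1a1, which makes retinoic acid, rose 1.40-fold from 11.31, 11.23 and 11.21 to 11.70, 11.80 and 11.70. Dhrs3, which reduces retinal to retinol, rose by 0.60 ± 0.11 below background. None of the 3 had overlapping groups.

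Genes of the respiratory chain did not pass one by one. Among 35 complex I subunits none passed, 28 had a positive difference and the median was 0.13, against 0.09 over all genes above background. Nearest to the threshold was Ndufa7 at 0.48 ± 0.13 (adjusted p = 0.0904), which read 8.03, 8.29 and 8.29 in water and 8.70, 8.52 and 8.83 in phenformin. Neither did any of 30 subunits of complexes II, III and IV pass (median 0.06), nor any of 16 ATP synthase subunits (0.08), 76 mitochondrial ribosomal proteins (0.02), 60 cytosolic ribosomal proteins (0.03), 20 tricarboxylic acid cycle genes (0.06) or 21 fatty acid oxidation genes (0.06). Cytochrome c, Cycs, read 11.23, 11.62 and 11.76 in water and 11.28, 11.23 and 11.09 in phenformin, with overlapping groups.

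Of 17 genes of mitochondrial protein stress, Chchd10, a protein of the intermembrane space, rose 2.32-fold and 16 did not pass. Chchd10 read 8.83, 8.23 and 8.10 in water and 9.48, 9.60 and 9.71 in phenformin, a difference of 1.21 ± 0.19. The proteases Htra2 (0.24 ± 0.10) and Spg7 (0.23 ± 0.14) did not pass. None of 22 genes of AMPK and mTORC1 signalling passed. The catalytic AMPK subunit Prkaa2 came nearest, at 0.47 ± 0.12 (adjusted p = 0.0803), with 7.60, 7.51 and 7.59 in water and 7.86, 8.13 and 8.11 in phenformin. Of 9 biguanide transporters, 7 were above background in no vector array and none passed.

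In glucose handling, Txnip, an arrestin-like inhibitor of glucose uptake, fell 1.95-fold and the phosphofructokinase Pfkp rose 1.54-fold. Txnip read 9.23, 9.49 and 9.73 in water and 8.43, 8.58 and 8.55 in phenformin, and was called in 2 of 6 fits that left out an array. Pfkp read 10.26, 9.98 and 10.14 against 10.74, 10.82 and 10.71. Of 26 genes of glycolysis and lactate, Pfkp passed and 25 did not, with hexokinase 2, Hk2, at -0.41 ± 0.15 and Pfkm at 0.41 ± 0.11. Of 7 genes of MondoA and ChREBP glucose sensing, Txnip passed. Arrdc4, another target of MondoA, differed by -0.22 ± 0.13 below background, while Mlxip, which encodes MondoA, stood at 0.12 ± 0.14. None of 20 hypoxia targets passed, with Vegfa at 0.48 ± 0.15 and Hif1a at 0.12 ± 0.11.

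**Figure D4:**
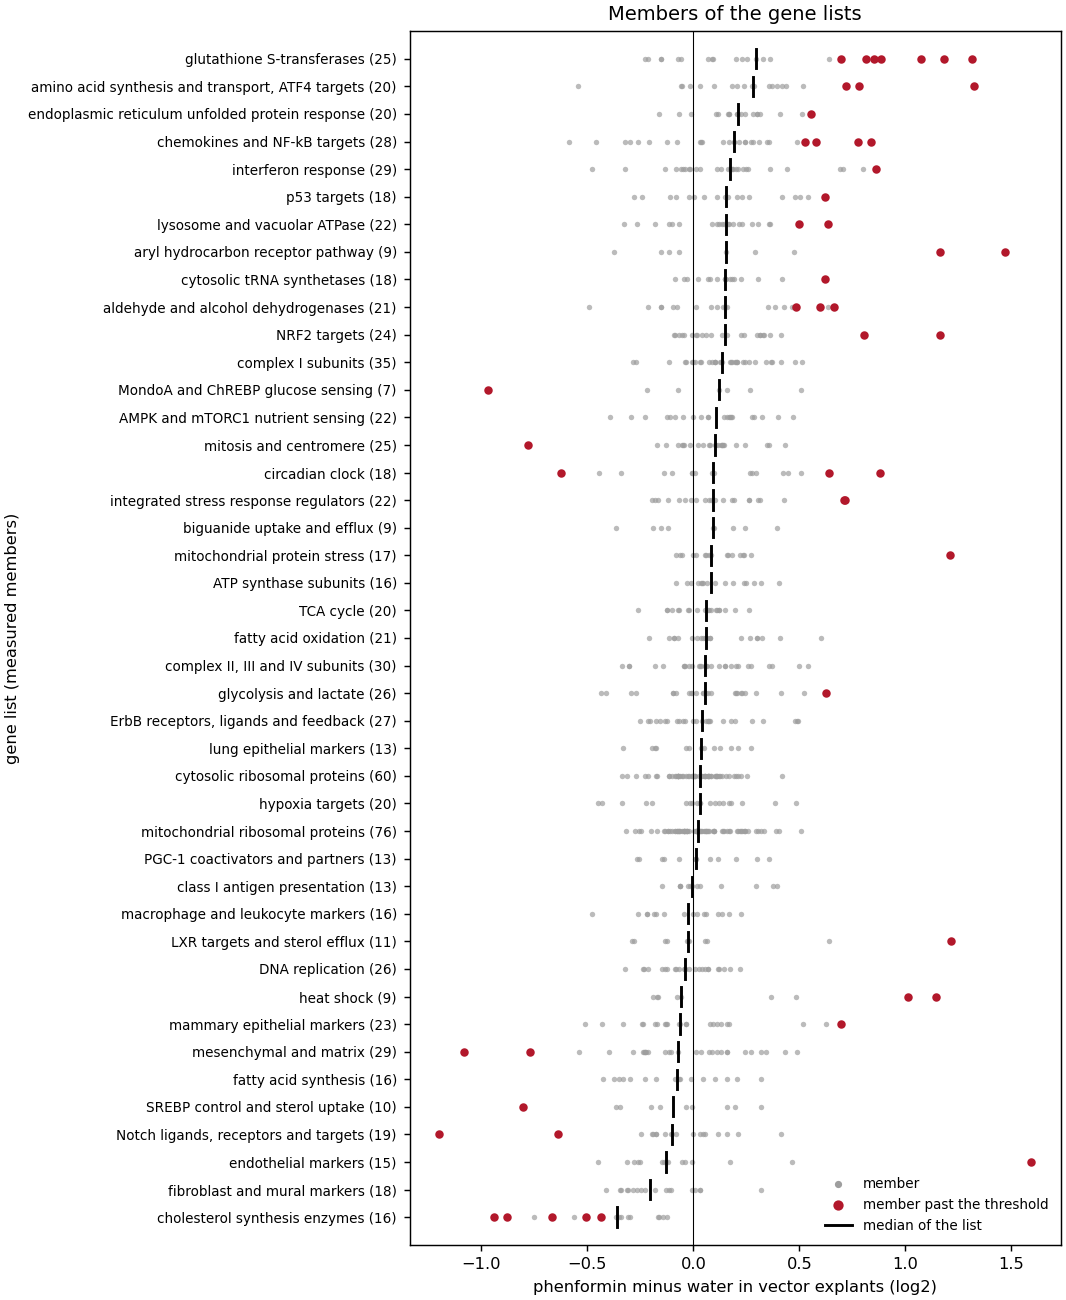
Difference between phenformin and water in vector explants (log2, horizontal axis) for each measured member of the 43 gene lists (vertical axis, ordered by median), with members past the threshold in red, other members in grey and the list median as a black bar. Glutathione S-transferases stand at the top with 7 red points and a median of 0.30, and cholesterol synthesis at the bottom with 5 red points and a median of -0.36.

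Of 9 heat shock genes, the small heat shock proteins Hspb1 and Cryab rose, while 0.918% of all genes did. Cryab read 10.24, 9.55 and 9.95 in water and 10.90, 11.02 and 10.85 in phenformin, a rise of 2.01-fold. Hsph1 (-0.17 ± 0.12), Hsp90aa1 (-0.08 ± 0.11) and Hspa1a (-0.19 ± 0.14) had negative differences that did not pass.

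Of 19 genes of the Notch pathway, the ligands Dll4 and Jag1 fell and none rose, while 0.282% of all genes fell and 0.918% rose. Dll4 read 7.79, 8.24 and 8.49 in water, where 2 arrays exceeded background, and 7.18, 7.06 and 6.68 in phenformin, where none did. Its fall of at least 1.19-fold (-1.20 ± 0.21, adjusted p = 0.0164) was the largest in size of all falls, and was called in 3 of 6 fits that left out an array. Jag1 read 9.29, 9.49 and 9.83 against 8.89, 8.94 and 8.85, a fall of 1.56-fold called in 1 of those 6 fits. The other 17 did not pass, with Notch2 at -0.19 ± 0.12 and the transcription factor Rbpj at 0.16 ± 0.12.

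Clock genes moved in both directions. Arntl, which encodes BMAL1, rose by 0.88 ± 0.15 from 7.51, 7.31 and 7.90, with 1 array and not the mean above background, to 8.44, 8.52 and 8.39. Dbp, an output gene of the clock, rose 1.56-fold from 10.09, 9.87 and 10.01 to 10.48, 10.76 and 10.65. Cry1, a repressor of the clock, fell by 0.62 ± 0.12 from 7.26, 6.98 and 7.24 to 6.69, 6.57 and 6.36, all below background. The other 15 of 18 clock genes did not pass, and no source used here gives the time of day of sampling. Over all genes 0.918% rose and 0.282% fell.

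Among inflammatory genes, the few calls were rises. Of 28 chemokines and NF-kB targets, 4 rose and none fell: Cxcl5, Ccl7 (1.49-fold), Nfkbiz, a nuclear modulator of NF-kB (1.44-fold), and Lcn2, an iron-binding protein, which read 5.80, 5.28 and 5.16 against 6.28, 6.32 and 6.16 below background. Without water replicate 2, 1 rose. Over all genes 0.918% rose and 0.282% fell. Of the 28, 20 had a positive and 8 a negative difference, and 16 were above background in no vector array. Ccl7, a monocyte attractant, read 8.04, 8.22 and 8.27 in water and 8.71, 8.83 and 8.71 in phenformin. Of 29 interferon response genes, Bst2, or tetherin, rose 1.81-fold from 9.45, 9.12 and 9.20 to 10.01, 10.35 and 9.98, and 23 were above background in no vector array. None of 13 genes of class I antigen presentation passed, with B2m at 0.38 ± 0.12 and H2-K1 at 0.39 ± 0.13.

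Genes of growth and cell division gave few calls. Among 26 DNA replication genes none passed, with a median of -0.04 and E2f1 at -0.32 ± 0.12. Among 25 genes of mitosis and centromere, Cenpw, a centromere protein, fell by 0.78 ± 0.16 below background and 24 did not pass. Of 18 p53 targets, the antiproliferative gene Btg2 rose at least 1.05-fold, while Cdkn1a, which encodes p21, stood at 0.42 ± 0.13 (12.23, 11.81 and 11.90 against 12.38, 12.44 and 12.36) and did not pass. None of 27 genes of ErbB receptors, ligands and feedback passed. Erbb2 differed by -0.20 ± 0.11. Of 22 genes of lysosome and vacuolar ATPase, the acid glucosidase Gaa rose 1.55-fold, the cathepsin Ctsz 1.41-fold and the others did not pass, with a median of 0.15. Without water replicate 2, neither passed. Over all genes 0.918% rose.

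Epithelial and mesenchymal genes gave few calls. Of 23 mammary epithelial markers, the keratin Krt19 rose 1.62-fold from 11.15, 10.89 and 11.02 to 11.71, 11.79 and 11.66, while Krt8 differed by -0.18 ± 0.16 and Cdh1 by 0.09 ± 0.11. Of 29 mesenchymal and matrix genes, Has2, the hyaluronan synthase, and P4ha3, a collagen prolyl hydroxylase, fell below background. Over all genes 0.282% fell. Has2 read 6.71, 7.16 and 7.26 in water and 5.83, 5.94 and 6.12 in phenformin, a difference of -1.08 ± 0.17. Vimentin, Vim, stood at 13.42 to 13.48 in all 6 arrays, fibronectin, Fn1, at -0.54 ± 0.15 and Snai2 at 0.49 ± 0.13, neither past the threshold.

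Markers of other cell types were mostly below background. None of 18 fibroblast and mural markers passed, 4 had a positive and 14 a negative difference, and the median was -0.20. Among all genes above background in no vector array, 36.7% had a positive difference and the median was -0.07. The mean level of that list was 6.09, 6.41 and 6.28 in water and 6.03, 6.10 and 6.17 in phenformin, highest in water replicate 2, and 15 members were above background nowhere. Of 15 endothelial markers, P-selectin, Selp, rose and 12 were above background nowhere, the defining genes Pecam1 and Vwf among them. Selp read 8.10, 6.81 and 7.57 in water, where 1 array exceeded background, and 9.05, 9.18 and 9.03 in phenformin, a rise of 1.59 ± 0.28 from a mean below background, called in 2 of 6 fits that left out an array. The mean level of the endothelial list was 5.77 to 6.02 in water and 5.87 to 6.04 in phenformin. Of 16 macrophage and leukocyte markers none passed and 15 were above background nowhere, with list means of 5.44 to 5.70 in water and 5.45 to 5.59 in phenformin. Of 13 lung epithelial markers none passed, and 11 were above background nowhere, Sftpc and Nkx2-1 among them. In bulk samples, fewer cells of a type and less RNA per cell cannot be told apart.

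Among the other large falls, Safb, a nuclear scaffold attachment factor, read 9.37, 9.19 and 9.59 in water and 8.69, 8.35 and 8.44 in phenformin. It fell 1.85-fold (adjusted p = 0.0134) and was called in 4 of 6 fits that left out an array. Pate14 (-1.13 ± 0.23), Ms4a3 (-0.76 ± 0.17) and the calcium channel gene Cacna1e (-0.76 ± 0.15) fell below background in all 6 arrays. Among the rises, Pkhd1l1, a large membrane protein related to fibrocystin, read 4.76, 4.72 and 4.78 in water and 5.89, 6.37 and 5.65 in phenformin, a difference of 1.22 ± 0.19 below background.

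The same treatment in PGC-1alpha explants shared no arrays with this comparison and asks how far the response was that of the vector line. There limma called 38 genes (0.195%), of which 26 were higher (0.133%) and 12 lower (0.0615%). Of the 234 calls in vector explants, 26 were also called in PGC-1alpha explants, all in the same direction. They make up 11.1% of the vector calls and 68.4% of the PGC-1alpha calls, and the 2 comparisons took each gene's spread from 1 shared estimate. Of the 234, 214 (91.5%) had the same sign in PGC-1alpha explants, and the share of equal signs over all genes was not computed. The negative controls shifted in that line too, with medians of 4.97, 4.99 and 4.88 in water and 5.12, 5.15 and 5.09 in phenformin. Shared signs from the treatment and from this shift cannot be told apart. The median difference in PGC-1alpha explants was 0.46 over the genes that rose in vector explants and -0.15 over those that fell.

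Cth rose in both lines, by 1.32 ± 0.11 in vector and 1.77 ± 0.11 in PGC-1alpha explants. Insig1 (-0.80 ± 0.10 and -0.75 ± 0.10), Cyp51 (-0.88 ± 0.13 and -0.86 ± 0.13), Dll4 (-1.20 ± 0.21 and -2.07 ± 0.21) and Txnip (-0.97 ± 0.16 and -1.60 ± 0.16) fell in both. Gpt2, Vldlr, Pfkp, Gstm2, Adh7, Dbp, Gcnt3, Vnn1, Cdsn, Psg17, Reep6 and Jag1 were also called in both lines in the same direction. Adgrg2 rose by 1.72 ± 0.22 in vector explants and differed by 0.46 ± 0.22 in PGC-1alpha explants, and Mal stood at 1.14 ± 0.13 against -0.04 ± 0.13.

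When the difference of both responses was tested itself, limma called 0 of 19505 genes (0%), with 1018 at an unadjusted p under 0.05, and so none of the 234 was shown to respond differently. All phenformin arrays lay above all water arrays in 1 line and below them in the other for 68 genes (0.349%). The smallest adjusted p of these differences was 0.164, for Akr1c18 (-1.74 ± 0.27), Mal (-1.18 ± 0.19) and Clic3 (-1.52 ± 0.25). With an intensity trend in the variance model, the same 3 genes passed, and with only genes above background in the fit, Mal passed alone. Akr1c18, a hydroxysteroid dehydrogenase that inactivates progesterone, read 6.02, 5.89 and 5.55 in vector explants in water and 7.06, 7.08 and 6.61 in phenformin, below background in all 6 arrays.

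**Figure D5:**
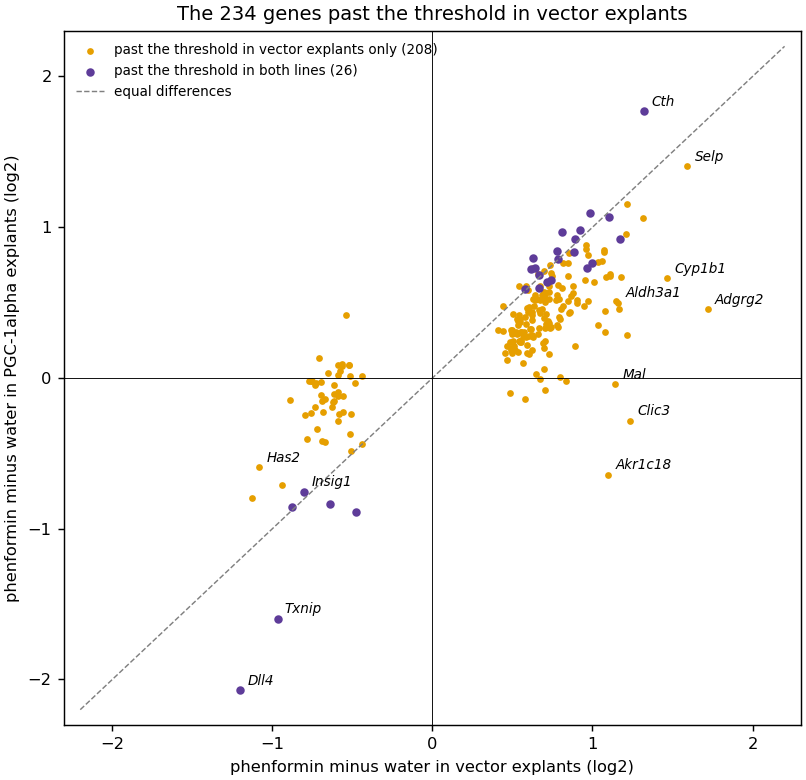
Difference between phenformin and water (log2) in PGC-1alpha explants (vertical axis) against that in vector explants (horizontal axis) for the 234 genes called in vector explants, with genes called in both lines in purple and the others in orange. The dashed line marks equal differences; of the points, 214 have the same sign in both lines, and Mal, Clic3 and Akr1c18 lie at or below 0 in PGC-1alpha explants.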

How the data were processed

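Total RNA of the explants had been hybridised to expression arrays after labelling from 10 ng, per the labels' protocols. The deposited value table holds log2 values for 28815 probe sets. That scale was inferred from their range, while how the authors normalized them, and in which log base, is not given in the sources used here. Of 22206 transcript clusters, 19572 carry 1 gene symbol in the platform annotation and 2634 are unnamed and were not analysed here. Where a gene had several probe sets (55 genes), the brightest on average over the 12 arrays stood for it, leaving 19505 genes. A second deposited table was not used, since its 12 columns match no sample label. No coordinates are given for array values because no build is named for them.

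Groups came from the sample titles. A model of 4 group means was fitted to all 12 arrays with lmFit and eBayes of limma 3.58.1 (R 4.3.3). It had no replicate block, since nothing in the labels says that a replicate number marks a shared animal, culture or day. The p-values are two-sided and were adjusted by Benjamini-Hochberg across all genes, at a threshold of 0.05, and the script was tested on simulated data. Background was the 95th percentile of the 5222 negative controls of each array. A bounded fold sets the brighter group's mean against the mean, over the dimmer group's arrays, of the probe set's value or the background, whichever was higher. The number of arrays limits the precision.

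Genes to name were picked by rule, and the text gives part of them: Ppargc1a, the 12 largest rises and falls among calls whose groups did not overlap, without symbols of predicted genes, small RNAs and olfactory or vomeronasal receptors (so 1700020N15Rik, which fell by 0.79, was passed over), 12 genes with the smallest adjusted p across the fits that left out an array, regulators and up to 5 members with the smallest p of each of 43 lists, and the 8 smallest p of the response difference. The other genes that passed whichever array was left out, and further list members that complete a pathway or a marker check, were named after their values were seen. The members, lists and tests were chosen with earlier results of these data known. Of 1005 listed genes 932 were measured. Promoter windows are those of RefSeq for GRCm38.p6, the first listed per gene and without chromosome 18. Alternatives were leaving out each array, a replicate block, renewed quantile normalization, 2 filters on dim genes, an intensity trend, array weights, a control gap covariate, the mean of a gene's probe sets and a fit of 6 arrays.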

Additional observations from a re-analysis of the deposited data

Results flagged for a closer look

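Of the 255 genes picked by the naming rule, 7 had all phenformin arrays above all water arrays in 1 line and below them in the other, an order that 68 of all 19505 genes had (0.349%). Of the 7, 5 (Akr1c18, Tns4, Adamts15, Slc6a13 and Myh3) were named for the small p of this very difference, so their number is no finding. The difference of responses was tested for each without passing. Differences below are the response in PGC-1alpha explants minus that in vector explants, on the log2 scale. Akr1c18, a hydroxysteroid dehydrogenase, had a difference of -1.74 (adjusted p = 0.164), with 1.10 ± 0.19 in vector and -0.64 ± 0.19 in PGC-1alpha explants. Tns4, a focal adhesion protein, had -0.78, with 8.05, 8.0 and 8.23 in vector explants in water and 8.44, 8.57 and 8.30 in phenformin, above background in all 6. The clock repressor Nfil3 (-0.55) and the replication helicase subunit Mcm5 (-0.47) were likewise higher in phenformin in vector explants and lower in PGC-1alpha explants. The metalloprotease Adamts15 had 1.00 (adjusted p = 0.183), the transporter Slc6a13 0.96 and the embryonic myosin Myh3 0.83, each lower in phenformin in vector explants and higher in PGC-1alpha explants. Of these, Adamts15, Myh3, Nfil3 and Akr1c18 were below background in all 6 vector arrays.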

How the results depend on the processing

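The number of calls in vector explants depended on the processing, and the cause was not tested. Against 234, the count was 100 with a replicate block, 637 with only genes above the median level, 703 with only genes above background in all arrays of a group, 691 with an intensity trend, 0 with the control gap as a covariate (1649 at an unadjusted p under 0.05) and 13 with the 6 vector arrays alone, and leaving out 1 array gave 21 to 601. In PGC-1alpha explants, against 38, it was 10, 62 after quantile normalization, 187, 267, 255, 409 with array weights, 1 with the covariate and 15 with 6 arrays, and 3 to 77 with 1 array left out. Responses that differed between the lines numbered 0 to 1 with 1 array left out, 1 with only genes above background and 3 with the trend. Higher calls were 56.4% of the total without water replicate 3. Of the 64 named genes called in vector explants, 38 passed with the replicate block, 49 after quantile normalization, 64 with the trend, 11 with 6 arrays and 0 with the covariate. None changed sign, but the block, the trend and the fit of 6 arrays leave each difference as it was. The labels do not say whether replicate numbers pair the vector arrays. Deviations of same-numbered arrays correlated across genes at 0.03, -0.27 and -0.37, which with 3 arrays per group cannot decide it. The negative control difference stayed between 0.21 and 0.37 with 1 array left out. Genes near or below the negative controls, 77 of the 234, have no fold, and 28 have a bound. Outside these 77, the text also gives no fold for Cyp1b1, Selp and Arntl, whose water means lay below the mean background.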

Other observations

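Some genes called in vector explants belong to no list above and were chosen after their values were seen, so they are given as values only. Casp4, the inflammatory caspase that senses cytosolic endotoxin, read 6.62, 6.33 and 6.47 in water and 7.60, 7.68 and 7.37 in phenformin, a rise of 1.08 ± 0.16 (adjusted p = 0.00853) below background that was also called with the 6 vector arrays alone. Gsdmd, the pore protein that inflammatory caspases cleave, rose 1.47-fold from 10.49, 10.50 and 10.57 to 11.01, 11.03 and 11.17. The 3 arrays of each group did not overlap for either gene.

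Lysosomal genes outside the list included Gm2a, the activator of ganglioside breakdown, which rose 1.85-fold from 9.14, 8.68 and 8.80 to 9.90, 9.87 and 9.53 and was also called in PGC-1alpha explants. Igf2r, the receptor that sorts lysosomal enzymes, rose 1.56-fold from 8.82, 8.65 and 9.05 to 9.36, 9.60 and 9.48. Castor1, the arginine sensor upstream of mTORC1, rose by 0.67 ± 0.12 in vector and 0.68 ± 0.12 in PGC-1alpha explants. In vector explants it lay close to or within the range of the negative controls, and was called in 2 of 6 fits that left out an array. Sgk1, a kinase of ion transport, rose 1.96-fold from 9.36, 8.52 and 9.01 to 9.95, 9.98 and 9.88, lowest in water replicate 2, and was called in 2 of 6 fits that left out an array.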
